A study of Homo sapiens with 8 samples.

Results

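TMEM45A and TMEM45B are paralogous human genes for small multi-pass membrane proteins. They are described here in LN229, an established glioblastoma cell line, on 8 expression arrays. The members were the 2 genes themselves. For each, the row of the deposited table was taken whose probe annotation gives exactly 1 gene symbol, equal to the member, and which had the highest mean over the 8 samples. Each gene had 1 such row (transcript cluster TC0300008148.hg.1 for TMEM45A and TC1100009514.hg.1 for TMEM45B), so 2 of 33458 genes with exactly 1 symbol were taken. TMEM45A was chosen with its difference between the groups known (rank 2 of all genes by size of the difference), and its values are therefore given as a description without a test. TMEM45B was chosen as its paralogue and not for its own values, and was tested.

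Groups were defined by the sample titles. The 4 samples titled no CSS (compressive solid stress, 0 Pa) and the 4 titled 23 Pa CSS were all LN229 cells grown on the porous membrane of a culture insert, and RNA was taken after 18 h. Compression came from steel discs on an agar cushion, and control wells had neither. Titles disagree with the source names and descriptions of the same samples, which state the opposite condition, so every sign below turns if those are right. The design leaves disc and cushion together, since no group had the cushion alone. No label says whether the 4 samples of a group were separate cultures, so the p-values reflect the spread among these samples alone, which may be technical.

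As background, TMEM45A is known as a gene induced by low oxygen through the hypoxia-inducible factors (HIF), and its protein has been linked to drug resistance of cancer cells under hypoxia and to keratinocyte differentiation, where it was placed at the trans-Golgi network. TMEM45B is less studied. It has been reported to bind TMEM45A and to limit the replication of alphaviruses. HIF binds DNA at a short core, written RCGTG, in the regulatory regions of its targets.

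The region upstream of TMEM45A is shown because the gene belongs to the HIF-responsive group and because this core can be looked for in it. In the RefSeq promoter table (GRCh38.p14) the 250 bases before the start of TMEM45A, on the plus strand at chr3:100492369-100492618, read as follows, with capitals marking the CCAAT and GGGCGG motifs on either strand.
TMEM45A upstream: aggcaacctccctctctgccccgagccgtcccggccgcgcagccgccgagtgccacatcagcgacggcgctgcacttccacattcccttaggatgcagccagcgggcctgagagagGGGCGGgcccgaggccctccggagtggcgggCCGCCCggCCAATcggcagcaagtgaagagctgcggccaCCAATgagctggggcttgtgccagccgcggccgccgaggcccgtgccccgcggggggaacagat

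This stretch held 26 CpG dinucleotides and 72.8% G and C, against medians of 16 and 61.6% over the 16564 upstream windows of measured genes. CCAAT was found 2 times, beginning 95 and 64 bases before the start, and GGGCGG 2 times, beginning 134 bases before it and, on the reverse strand, 103 bases before it. A CCAAT motif was present in 34.2% of all windows and GGGCGG in 53.1%. The HIF core, searched as ACGTG and GCGTG on both strands, had 0 matches in the TMEM45A window, while 49.1% of all windows held at least 1. TATAAA had 0 matches as well, against 9.46% of all windows. The absence of letters from 250 bases says nothing about sites elsewhere.

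Signal of TMEM45A was far higher in the samples titled 23 Pa CSS. In the samples titled no CSS its log2 signal was 8.72, 8.12, 8.60 and 8.51 in replicates 1 to 4. In the samples titled 23 Pa CSS it was 12.26, 11.54, 11.71 and 11.97. All 4 samples of the second group lay above all 4 of the first, with a gap of 2.82 between the nearest samples, while the samples of a group spanned 0.597 and 0.713. The group means were 8.49 ± 0.258 and 11.87 ± 0.313 (SD, n = 4), a difference of 3.38 on the log2 scale or 10.4-fold. RNA of whole cultures was measured, so a change in all cells and a change in some of them cannot be told apart. The SDs were close to the medians over all genes, 0.243 titled no CSS and 0.268 titled 23 Pa CSS. In 9.11% of genes all samples titled 23 Pa CSS lay above all samples titled no CSS.

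TMEM45B gave no such pattern. Its log2 signal was 3.09, 3.38, 3.56 and 3.18 in replicates 1 to 4 titled no CSS. It was 3.36, 3.26, 3.28 and 3.82 in replicates 1 to 4 titled 23 Pa CSS. The groups overlapped, and replicate 4 titled 23 Pa CSS was the highest of the 8. The means were 3.30 ± 0.208 and 3.43 ± 0.263 (SD, n = 4), and the difference of 0.127 had a 95% interval from −0.286 to 0.54 (limma adjusted p = 0.813 over all 135750 transcript clusters, of which 2.01% were called). A two-sided exact permutation test over the 70 assignments of the samples gave p = 0.543. The interval excludes a difference as large as the 3.38 seen for TMEM45A, but the signal itself limits what can be said. TMEM45B lay below the mean of the 612 negative control rows (5.02 titled no CSS and 5.05 titled 23 Pa CSS) and below the mean of the 23 antigenomic background rows (4.03 and 4.18) in each of the 8 samples, and TMEM45A above both in each. A change of TMEM45B within the background was not detectable.

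**Figure D1:**
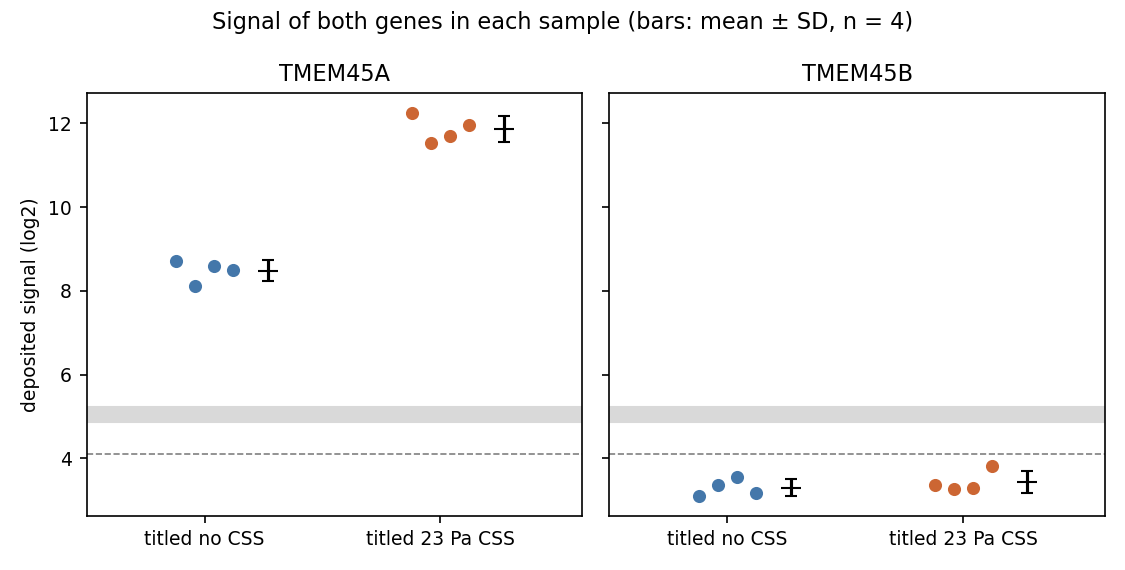
Deposited log2 signal (vertical axis) of TMEM45A and TMEM45B in the 4 samples titled no CSS and the 4 titled 23 Pa CSS; points are samples in the order of their replicate numbers, bars are mean ± SD, the grey band is the range over samples of the mean negative control row and the dashed line the mean antigenomic background. TMEM45A lies at 8.12 to 8.72 and at 11.54 to 12.26, and TMEM45B stays between 3.09 and 3.82, under both background levels.

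TEDDM1, which the gene table also lists under the name TMEM45C, was looked up after the values of the others had been seen. Its means were 3.67 ± 0.2 titled no CSS and 3.97 ± 0.533 titled 23 Pa CSS (SD, n = 4, limma adjusted p = 0.639), and 0 of its 8 samples exceeded the mean of the negative control rows. Of the 3 genes that carry or carried the TMEM45 name, only TMEM45A was therefore above that background.

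Facts of the arrays bear on these values as follows. Column medians ran from 4.56 to 4.65. The 4 hybridisation control rows, which report labelled material added to each array, had a mean of 10.20 (titled no CSS) and 10.51 (titled 23 Pa CSS), a difference of 0.311. Centred on these rows, the difference of TMEM45A was 3.07 and that of TMEM45B −0.184. Of 10 markers of the line, 8 had a mean above that of the negative control rows. The intermediate filament genes VIM (16.64 and 16.91) and NES (12.20 and 12.87) and the hyaluronan receptor CD44 (13.59 and 14.13) were well above the negative controls, whereas the astrocyte filament GFAP (4.30 and 4.58) was above their mean in 0 of 8 samples and the glial factor OLIG2 in 2. CDKN2A, reported as deleted in LN229, was above it in 0 of 8 samples (3.14 and 3.23). Of the lists for other cell types, 3 of 7 epithelial genes had a mean above it (the keratins KRT8 and KRT18 in 8 of 8 samples and ESRP1 in 6), while EPCAM and CDH1 exceeded it in 0 of 8. Means lay above it for 2 of 5 leukocyte genes (PTPRC and CSF1R), 4 of 5 neuronal genes (SYT1, SNAP25, GAD1 and RBFOX3) and 0 of 5 endothelial genes, although VWF exceeded it in 2 samples. The groups did not overlap for KRT18 (11.30 and 12.21, limma adjusted p = 0.084), PTPRC (4.83 and 5.59, adjusted p = 0.0505) and SYT1 (10.34 and 9.25, adjusted p = 0.0995), and their part in the results was not tested. For 6 of the 10 markers of the line the groups did not overlap either, as for 4579 of all 33458 genes. Of the 32 markers listed for the line and for other cell types, 0 passed limma's threshold, where 2.32% of all genes were called. An unadjusted p under 0.05 was found for 10 of the 32, against 19.3% of all genes.

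Genes with a profile like that of TMEM45A were ranked by the root mean square distance over the 8 samples, after the own mean of each gene was subtracted. This ranking uses the contrast for which TMEM45A was chosen and is a description. The closest of 33457 genes was NDRG1, a stress-responsive gene, at a distance of 0.456 log2 units. It was followed by STC1 (0.473), which encodes a secreted glycoprotein, and by ADM (0.48), the gene of adrenomedullin, a peptide that widens vessels. ALDOC (0.516), a glycolytic aldolase, AK4 (0.534), a mitochondrial adenylate kinase, and SLAMF9 (0.55), an immunoglobulin-superfamily receptor, came next. The median distance over all genes was 1.68, and TMEM45B stood at 1.66.

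Within the groups the closest genes mostly differed from TMEM45A in their order of samples. Its lowest sample titled no CSS was replicate 2 (2.06 below its own mean over all samples), but STC1, NDRG1, ALDOC, AK4 and SLAMF9 were lowest in replicate 4 and ADM in replicate 2. In the samples titled 23 Pa CSS, TMEM45A was highest in replicate 1 (2.08 above its mean). ALDOC was highest there too, with 12.81 against 12.39, 12.34 and 12.33 in replicates 2 to 4. STC1, ADM and AK4 were highest in replicate 3, and NDRG1 and SLAMF9 in replicate 4. What all 7 profiles had in common was the separation of the groups.

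**Figure D2:**
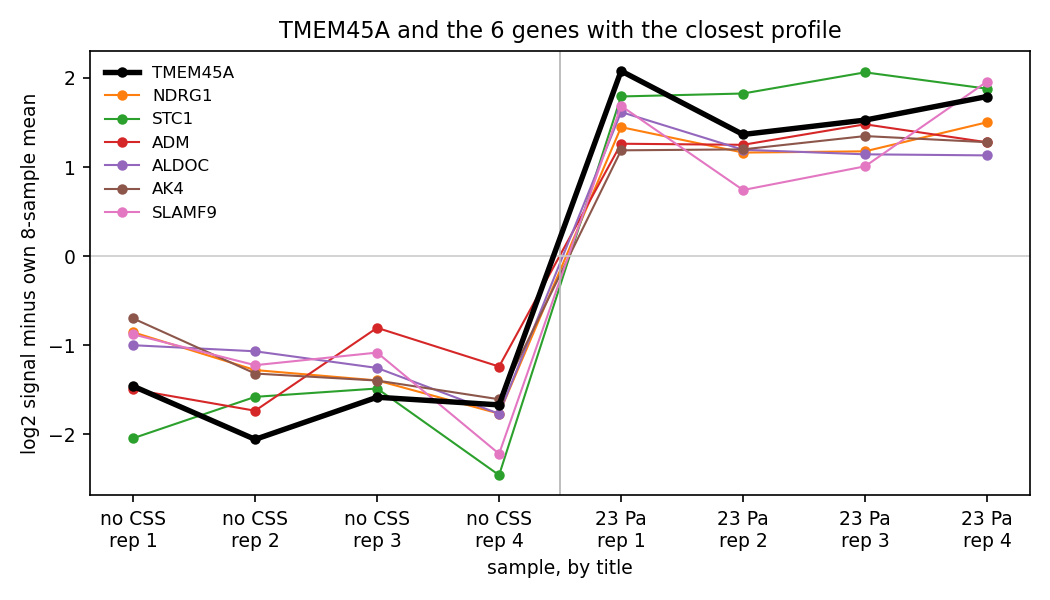
Log2 signal minus each gene's own mean over 8 samples (vertical axis) in each sample by title (horizontal axis), for TMEM45A (thick black) and the 6 genes at the smallest root mean square distance from it. Each of the 7 lines lies below 0 under the no CSS titles and above 0 under the 23 Pa CSS titles, while their order within a group differs.

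For 4 of these 6 genes the promoter table held an upstream window, and each of the 4 had at least 1 HIF core. The windows with the core nearest to the start are shown for contrast with the TMEM45A stretch above, which has none. Capitals mark ACGTG or GCGTG, or its reverse complement, and all are on GRCh38.p14 in the direction of the gene.
ADM, plus strand, chr11:10304962-10304986: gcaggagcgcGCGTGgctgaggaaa
ALDOC, minus strand, chr17:28576909-28576933: ccggaggagtCACGTagctctgcga
AK4, plus strand, chr1:65147450-65147474: cgcagggagcACGTGggccaggcag
SLAMF9, minus strand, chr1:159954454-159954478: ggcatgcagtACGTGcggggacctg

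The core began 101 bases before the start in ADM, 28 in ALDOC, 92 in AK4 and 231 in SLAMF9. A match of this kind is frequent and is not a measured binding site: 20.4% of all windows hold ACGTG, 37.8% GCGTG and 49.1% at least 1 of them. Of 22 windows of the hypoxia target list described next, 17 held at least 1. ADM, ALDOC and AK4 belong to that list. Motifs other than the HIF core were frequent in these windows too. GGGCGG was in 17 of the 22 (53.1% of all windows), CCAAT in 9 (34.2%) and TATAAA in 5 (9.46%). Taken apart, the core forms were ACGTG in 12 of the 22 (20.4% of all windows) and GCGTG in 11 (37.8%). Whether any of these motifs was more frequent in the list than in all windows was not tested.

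Genes induced by low oxygen, the group to which TMEM45A belongs by earlier work, mostly rose in the samples titled 23 Pa CSS. The list left TMEM45A out and was drawn up with results of these data known, so its direction is no independent evidence. Of 26 measured members 20 rose, 0 fell and 6 did not pass at an adjusted p under 0.05 (limma), where 2.32% of all 33458 genes were called and 1.36% were called higher. The median difference was 1.49, against 0.0938 over all genes. Without the assumption of equal spread in both groups 0 of the 26 passed, as did 0 of all transcript clusters, while 23 of the 26 had an unadjusted p under 0.05. CA9 and PFKFB4 of the 28 listed genes had no row with a single symbol.

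The difference of TMEM45A exceeded that of 25 of the 26 members, STC1 being the exception. This follows from the choice of TMEM45A, whose rank of 2 among all genes was known, with STC1 at rank 1. STC1 rose by 3.78, from 11.36 ± 0.449 to 15.14 ± 0.121 (SD, n = 4, limma adjusted p = 0.00021). NDRG1 rose by 2.65 and ADM by 2.64 (adjusted p = 0.00114 for both), and AK4 rose by 2.51 (adjusted p = 0.00129). The collagen prolyl hydroxylase subunits P4HA2 (2.05) and P4HA1 (1.57), the pyruvate dehydrogenase kinase PDK1 (1.81) and the oxidoreductase ERO1A (1.24) rose too, with adjusted p of 0.00352, 0.00488, 0.00469 and 0.00714; these were picked for their values. The 6 that did not pass were DDIT4 (0.71), ENO2 (0.852), ANKRD37 (0.609), LOX (0.479), PFKFB3 (0.228) and EGLN3 (0.108). LOX was above the mean of the negative control rows in 1 of 8 samples, EGLN3 in 2 and ENO2 in 5. Changes in these genes may therefore not have been seen. With rows below that mean left out, 22 members stayed and 20 passed, against 8.66% of all genes so filtered. ANGPTL4, which passed with 0.725, lay below the mean of the negative control rows in each sample.

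**Figure D3:**
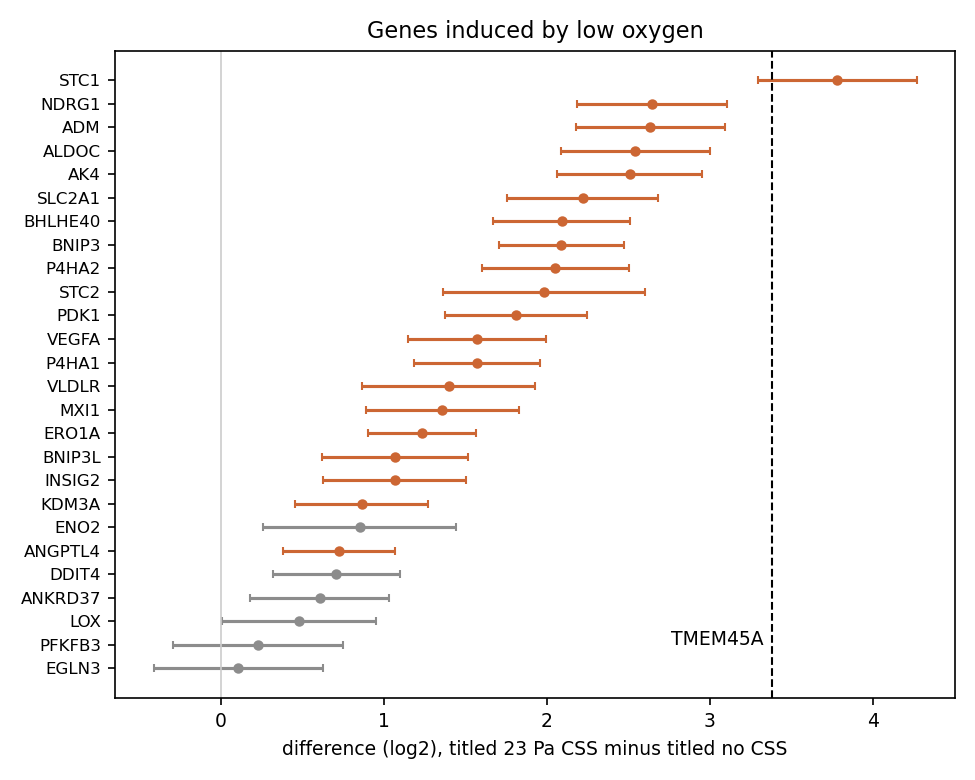
Difference in log2 signal, titled 23 Pa CSS minus titled no CSS (horizontal axis), of the 26 measured genes of the hypoxia list with 95% intervals from limma; orange marks the 20 genes past the threshold and grey the 6 others, and the dashed line is TMEM45A. STC1 is the one gene whose difference (3.78) lies beyond that of TMEM45A (3.38).

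The median of the list in single samples, each gene taken relative to its own mean, was −0.593, −0.627, −0.695 and −1.07 in replicates 1 to 4 titled no CSS. It was 0.665, 0.558, 0.912 and 0.842 in replicates 1 to 4 titled 23 Pa CSS. TMEM45A stood at −1.46, −2.06, −1.58 and −1.67 and at 2.08, 1.37, 1.53 and 1.79 in the same samples. Under the no CSS titles the list was lowest in replicate 4 and TMEM45A in replicate 2, whereas under the 23 Pa CSS titles both were lowest in replicate 2.

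A further list held HIF subunits, their regulator VHL and the oxygen-sensing hydroxylases. In it EPAS1, which encodes the HIF-2 alpha subunit, rose from 7.06 ± 0.318 to 8.55 ± 0.264 (SD, n = 4), a difference of 1.49 (limma adjusted p = 0.011). It was the 1 of 9 measured members that passed (11.1%, against 2.32% of all genes), and 8 did not. HIF1A, the HIF-1 alpha subunit, which is controlled mainly through protein stability, was 17.90 ± 0.125 and 17.51 ± 0.362 (SD, n = 4, adjusted p = 0.386). EGLN1, an oxygen-sensing prolyl hydroxylase, differed by 0.374 (adjusted p = 0.331), and ARNT, the shared HIF partner, by 0.448 (adjusted p = 0.339).

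Many other genes carry the letters TMEM and a number, a naming convention for predicted membrane proteins and not a family. Of 224 such genes measured, TMEM45A was highest by difference, which follows from its choice with rank 2 among all genes known. Among the other 223, limma called 0, where 2.32% of all genes were called, and 52 (23.3%) had an unadjusted p under 0.05, as did 19.3% of all genes. The largest differences among these 223 were 0.894 (TMEM259) and −0.838 (TMEM161B), both named after their values were seen, with adjusted p of 0.0719 and 0.0603. Their median was 0.12. With rows below the mean of the negative controls left out, 149 of the 223 stayed and 9 passed (6.04%, against 8.66% of all genes so filtered). With arrays centred on the hybridisation controls 9 passed, all lower (4.04% against 5.17%), and without replicate 3 titled 23 Pa CSS 6 passed (2.69% against 4.26%). The count of 0 thus depended on these settings, and the share called was below that of all genes in each of these 3.

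**Figure D4:**
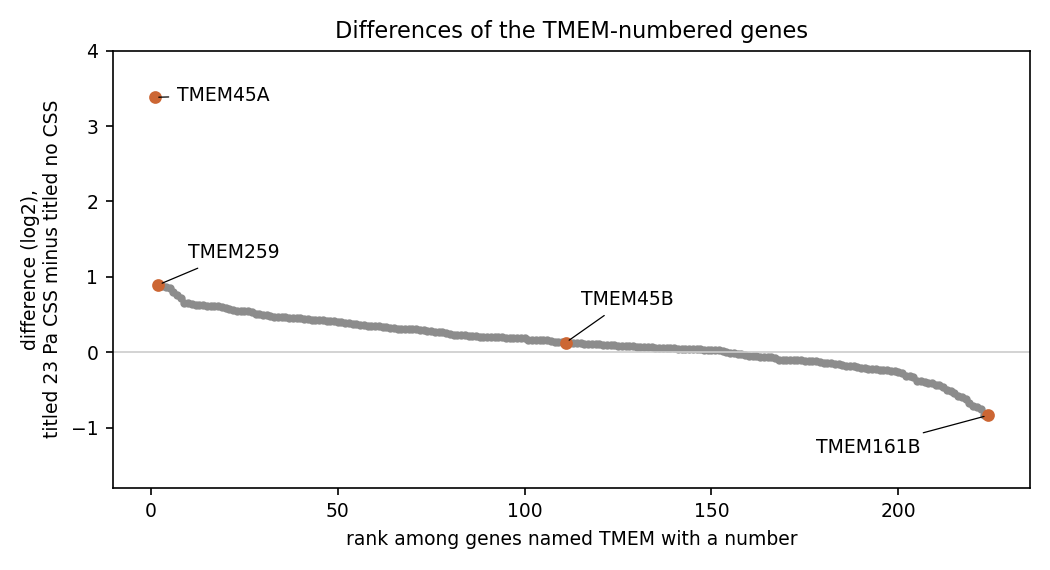
Difference in log2 signal, titled 23 Pa CSS minus titled no CSS (vertical axis), of 224 genes named TMEM with a number, ranked from highest to lowest (horizontal axis). TMEM45A stands at 3.38, the next gene, TMEM259, at 0.894, TMEM45B at 0.127 and the lowest, TMEM161B, at −0.838.

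Genes beside TMEM45A on chromosome 3 and beside TMEM45B on chromosome 11 were compared in the order of the gene table, 5 protein-coding genes on each side. Of these 20 genes, limma called 0 and 1 (5%) had an unadjusted p under 0.05, where 2.32% of all genes were called and 19.3% had such a p. The genes next to TMEM45A are LNP1 and ADGRG7. LNP1 was 5.22 ± 0.125 and 5.28 ± 0.342 (SD, n = 4), a difference of 0.0594 with a 95% interval from −0.369 to 0.488. ADGRG7, an adhesion G-protein-coupled receptor, was 5.29 ± 0.396 and 5.52 ± 0.355, a difference of 0.23 with an interval from −0.299 to 0.759. Both intervals lie far below the difference of TMEM45A, which was chosen with that difference known. LNP1 and ADGRG7 each exceeded the mean of the negative control rows in 6 of 8 samples. Their signal was thus close to background, where a change may not have been seen.

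Farther out, the mitochondrial import receptor TOMM70 (−0.288), the amidase NIT2 (−0.173), TBC1D23 (−0.424), FILIP1L (−0.12), TFG (0.064), ABI3BP (−0.0477) and IMPG2 (−0.0187) did not pass, with adjusted p from 0.399 to 0.976. SENP7, a SUMO protease and the last of the 5 on its side, was 9.30 ± 0.377 and 7.82 ± 0.853 (SD, n = 4), a difference of −1.47 (limma adjusted p = 0.0678). In the samples titled 23 Pa CSS, SENP7 was 6.93 and 7.29 in replicates 1 and 4 and 8.34 and 8.74 in replicates 2 and 3. It passed with arrays centred on the hybridisation controls, with low rows left out and without replicate 3 titled 23 Pa CSS. Around TMEM45B, the differences ran from −0.347 for ZBTB44 to 0.426 for NFRKB, and adjusted p from 0.399 to 0.994. KCNJ1, KCNJ5, BARX2 and ST14 were, like TMEM45B, above the mean of the negative control rows in 0 of 8 samples, and TP53AIP1 in 1. APLP2, PRDM10, NFRKB, ARHGAP32 and ZBTB44 were above it in all 8.

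**Figure D5:**
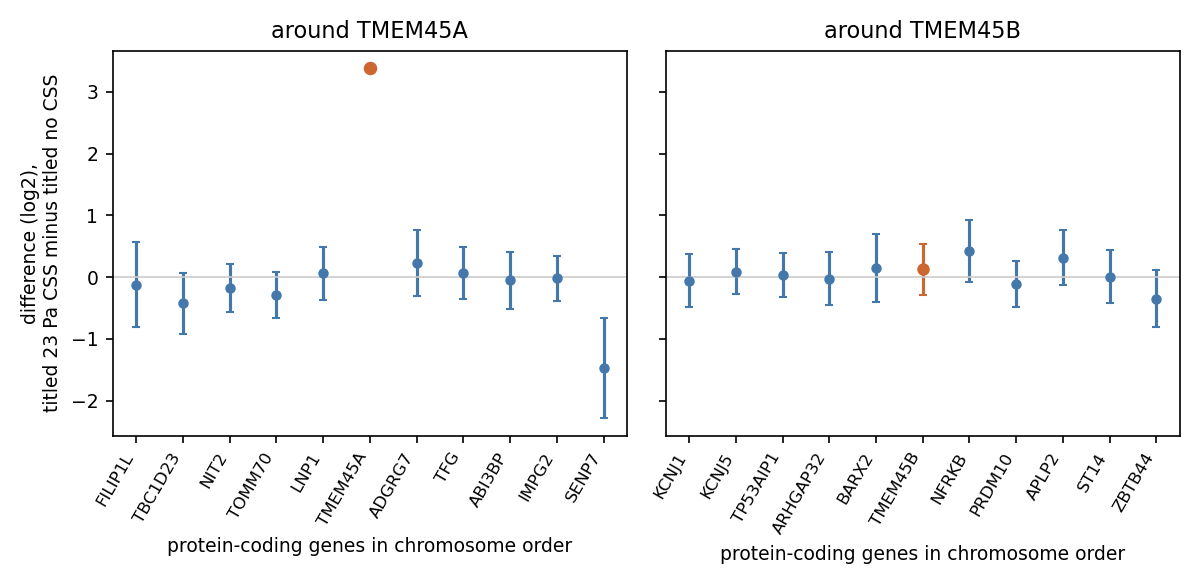
Difference in log2 signal, titled 23 Pa CSS minus titled no CSS (vertical axis), of the 5 protein-coding genes on each side of TMEM45A (left) and TMEM45B (right) in chromosome order, with 95% intervals from limma; the member is orange, and TMEM45A has no interval because it was chosen for its difference. The neighbours of TMEM45A run from −1.47 (SENP7) to 0.23 (ADGRG7), while TMEM45A is at 3.38.

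Lists were also drawn from the settings in which TMEM45A has been described. In the list of keratinocyte differentiation genes limma called 0 of 26, against 2.32% of all genes, and 3 (11.5%) had an unadjusted p under 0.05, against 19.3%. Only 2 of these genes had a mean above that of the negative control rows, so changes in most could not have been seen. FLG, the filaggrin gene, was 3.67 and 4.30 and DSP, which encodes desmoplakin, 4.21 and 4.76 (adjusted p = 0.223 and 0.14), both below that mean in all 8 samples. TGM1 and RPTN differed by 0.434 and 0.421 (adjusted p = 0.3 and 0.385).

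Of 23 measured genes of the trans-Golgi network, 1 fell and 22 did not pass, a share called of 4.35% against 2.32% of all genes (0.962% called lower), and 9 (39.1%) had an unadjusted p under 0.05, against 19.3%. The 1 was GCC2, a golgin that tethers vesicles, which fell by 1.70, from 10.84 ± 0.0995 to 9.14 ± 0.749 (SD, n = 4, limma adjusted p = 0.0242). Its spread was wider in the samples titled 23 Pa CSS. There it was 8.40 and 8.67 in replicates 1 and 4 and 10.05 and 9.44 in replicates 2 and 3, a split also seen for SENP7. The call of GCC2 was lost when any 1 sample titled no CSS, or replicate 1 or 4 titled 23 Pa CSS, was left out (limma adjusted p from 0.0528 to 0.0787). These values are of 1 of the 2 rows of GCC2, and the mean of both rows fell less, by 1.15 (limma adjusted p = 0.0322). GOLGA4, another golgin (−0.906, adjusted p = 0.059), the protease FURIN (0.752, adjusted p = 0.0677) and the adaptor GGA3 (0.742, adjusted p = 0.101) did not pass. The median of the list was 0.224.

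Of 25 measured regulators and caspases of apoptosis limma called 0, against 2.32% of all genes, and 9 (36%) had an unadjusted p under 0.05, against 19.3%. BAX, which permeabilises the outer mitochondrial membrane, differed by 0.77 (limma adjusted p = 0.0712). XIAP and BIRC2, of the inhibitor of apoptosis family, differed by −0.627 and −0.592 (limma adjusted p = 0.139 and 0.169). BAD differed by 0.743 (adjusted p = 0.173). The median of this list was 0.184, against 0.0938 over all genes. BAX passed with quantile normalization and with low rows left out. XIAP, BIRC2 and BIRC3 passed as lower with arrays centred on the hybridisation controls.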

How the data were processed

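Total RNA of 8 LN229 samples was measured on arrays of one maker. The authors deposited a log2 signal for each row and sample, made, per the submitters' processing notes, with Transcriptome Analysis Console. Summarisation, normalization and build are not given in the sources used here. The deposited values comprise 138745 rows, and the 135750 that are transcript clusters were tested without a filter, leaving out 2995 controls. The probe annotation gave 1 symbol to 36176 of them, several to 1119 and none to 98455. Symbols were updated by Entrez identifier (25516), symbol (9899) or synonym (623), and 138 found no match. For 1707 genes with several rows the one with the highest mean was used.

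The test was that of limma (version 3.58.1, R 4.3.3; lmFit, then eBayes; two-sided; residual df 6, prior df 5.28; Benjamini-Hochberg over all transcript clusters, threshold 0.05) after a test on simulated data. Plots used Python 3.11.15 and matplotlib 3.10.9. Members and lists were chosen with earlier results of these data known. Named genes were both members, the 6 nearest profiles, up to 4 genes with the smallest p of each list, all 20 neighbours, TMEM genes past the threshold and markers. Any other was named after its values were seen. Array signal carries no count, and the number of arrays limits the precision. The alternatives were other normalizations, a filter on low signal, other variance models, a replicate block, the mean of all rows of a gene and leaving out each sample.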

Additional observations from a re-analysis of the deposited data

Results flagged for a closer look

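Among the 158 groups of 4 values examined (both members and the genes named in the text), 9 held a sample far from the other 3, where chance alone flags about 1 in 20 groups. Neither TMEM45A nor TMEM45B was among them. ADM was 9.58 in replicate 3 titled 23 Pa CSS, with the next sample at 9.38. ALDOC was 12.81 in replicate 1 titled 23 Pa CSS, the sample in which TMEM45A was also highest, with the next at 12.39. GOLGA4 was 8.62 in that same sample, below the next at 9.41. DSP was 4.42 in replicate 2 titled 23 Pa CSS, with the next at 4.84. HIF1A was 18.08 in replicate 1 titled no CSS, with the next at 17.84, and KCNJ1 was 3.92 in replicate 2 titled no CSS, with the next at 3.39. ERO1A was 14.63 in replicate 3 titled no CSS, with the next at 14.71. Of the cell type markers, OLIG2 was 4.43 in replicate 4 titled no CSS, with the next at 4.87, and GAD1 was 7.72 in replicate 2 titled 23 Pa CSS, with the next at 8.58. The causes were not tested.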

How the results depend on the processing

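The difference of TMEM45A was 3.38 and ran from 3.25 to 3.49 when single samples were left out; quantile normalization gave 3.49 and centring on hybridisation controls 3.07. TMEM45B did not pass in any fit that included it, and its difference turned to −0.184 on arrays so centred; without single samples it ran from −0.00275, without replicate 4 titled 23 Pa CSS, to 0.213. The filter on low signal removed it. In all, 2727 transcript clusters were called. The count was 8581 centred on hybridisation controls, 4935 with low rows left out, 1329 with a replicate block, and from 411 to 5360 without single samples (lowest without replicate 4 titled no CSS, highest without replicate 3 titled 23 Pa CSS). It was 0 where the spread was not assumed equal, with 16418 at an unadjusted p under 0.05 and a smallest adjusted p of 0.0703. Under that setting the hypoxia targets, the HIF subunits and hydroxylases, the trans-Golgi genes and the TMEM genes had 0 calls as well. The share of all genes called moved with the setting, and the list counts below are to be read beside it. It was 2.32%, and 2.68% with quantile normalization, 5.17% centred on hybridisation controls and 8.66% with low rows left out. An intensity trend gave 3.74%, the replicate block 0.977%, and leaving out single samples 0.371% to 4.26%. Hypoxia targets called higher numbered 20, and from 14 to 19 without single samples. With the replicate block 16 were called higher. Same-numbered samples did not deviate together (correlations from −0.079 to −0.018 over transcript clusters), so no pairing by number was seen. Most of these rows lay below the mean of the negative control rows, which limits what the correlations can show. TMEM genes passing, TMEM45A left out, were 0, and 2 with quantile normalization, 9 centred on hybridisation controls, 9 with low rows left out, 4 with an intensity trend and 0 to 6 without single samples. Trans-Golgi genes passing were 1, and 2, 3, 3 and 4 under these settings and 0 to 1 without single samples. Apoptosis genes passing were 0, and 1 with quantile normalization, 3 centred on hybridisation controls and 1 with low rows left out. Neighbours passing were 0, and 1 centred on hybridisation controls, 1 with low rows left out and 0 to 1 without single samples, the 1 being SENP7. EPAS1 passed in every fit except that without equal spread. The causes were not tested. Signal close to the negative controls limits TMEM45B, LNP1, ADGRG7, some hypoxia targets and most keratinocyte genes.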
